A study of Mus musculus with 27 samples.

Results

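The genes described here are 7 members of the mouse Ms4a family, most of which are known from myeloid cells, namely Ms4a4a, Ms4a4b, Ms4a4c, Ms4a6b, Ms4a6c, Ms4a6d and Ms4a7. They were chosen by symbol: a row of the count table was a member when its Ensembl gene identifier, without the version, carried one of these symbols in the GENCODE M21 annotation. All 7 were found among the 55487 rows of the table, and all 7 were among the 20271 genes that passed the filter on low counts. The data are RNA-seq counts from cortex and hippocampus, taken from the side opposite to the infusion, of male C57Bl/6J wild-type mice that were 8 weeks old and received a continuous infusion into the right lateral ventricle for 14 days at 0.25 µl/h. The infusion held α-IgLON5 autoantibodies (treatment IgLON5 in the labels), a human control IgG (treatment mIgG) or PBS alone, and no group carried a transgene or a deletion. The labels describe the control as a monoclonal human IgG, whereas the study's methods describe IgG of a healthy person, and it is called control IgG here.

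There were 5 PBS, 5 control IgG and 4 α-IgLON5 cortices, and 5 PBS, 4 control IgG and 4 α-IgLON5 hippocampi, or 27 libraries in all. The number in a sample's title was taken as the number of the mouse, which gives 14 mice. Library totals ran from 19385642 to 58550621 counts, and the α-IgLON5 hippocampi, at 19428512 to 32776892 counts, were all below the control IgG hippocampi, at 39479753 to 52212204. The labels give the cell type as neurons, but whole dissected tissue was sequenced: all 8 neuronal markers and all 10 homeostatic microglia markers examined were detected in every group. In such bulk tissue, more cells of a type and more RNA per cell cannot be told apart.

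MS4A proteins span the membrane several times and sit at the cell surface or in endosomes, where many of them associate with signalling receptors. The founding member, MS4A1 or CD20, is a marker of B cells, and most of the Ms4a4, Ms4a6 and Ms4a7 genes are known from monocytes, macrophages and microglia, whereas Ms4a4b is best known from T cells. In the brain, Ms4a7 is commonly used as a marker of border macrophages and of macrophages derived from monocytes. In humans, variation at the MS4A locus is associated with the risk of Alzheimer's disease and with the level of soluble TREM2, the shed form of a microglial receptor, in cerebrospinal fluid.

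The members lie side by side on chromosome 19, in a stretch of 284 kb from position 11321039 to position 11604849 in GRCm38, in the order Ms4a7, Ms4a4a, Ms4a4c, Ms4a4b, Ms4a6c, Ms4a6b and Ms4a6d. Ms4a7 and Ms4a6d are on the minus strand and the other 5 are on the plus strand. The annotation holds 19 protein-coding genes whose symbols begin with Ms4a, so 12 of the family are not members. Related copies can share reads. Of the 50-base stretches in its annotated transcripts, Ms4a4c shared 7.73% with another member, Ms4a6c shared 5.85%, Ms4a6b shared 3.44%, Ms4a6d shared 2.31% and Ms4a4b shared 1.53%, while Ms4a4a and Ms4a7 shared 0. Ms4a4c, Ms4a6b and Ms4a6c also overlap an annotated gene on the opposite strand (Gm5692, Gm19261 and BE692007, respectively), and how the authors' counting treated strand is not given in the sources used here.

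The promoters were compared next. RefSeq promoters (GRCm38.p6, from 250 bases before to 50 bases after the start) were matched for 6 of the 7 members, with Ms4a7 having a pair of starts, and none was matched for Ms4a6d. The 250 bases before the start are shown for 2 pairs: Ms4a4b and Ms4a4c, whose promoters had the highest identity, and Ms4a6b and Ms4a6c, which shared the longest unbroken run of bases. Ms4a4b lies at chr19:11443308-11443557 and Ms4a4c at chr19:11407411-11407660, both on the plus strand, and the capitals mark matches to GAGGAA, the core bound by ETS factors such as PU.1, and to GGGANNTCC, an NF-kB motif.
Ms4a4b: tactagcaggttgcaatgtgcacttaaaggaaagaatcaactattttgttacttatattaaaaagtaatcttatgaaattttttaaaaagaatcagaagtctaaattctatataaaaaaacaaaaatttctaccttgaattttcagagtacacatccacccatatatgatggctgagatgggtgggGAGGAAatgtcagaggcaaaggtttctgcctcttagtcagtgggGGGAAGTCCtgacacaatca
Ms4a4c: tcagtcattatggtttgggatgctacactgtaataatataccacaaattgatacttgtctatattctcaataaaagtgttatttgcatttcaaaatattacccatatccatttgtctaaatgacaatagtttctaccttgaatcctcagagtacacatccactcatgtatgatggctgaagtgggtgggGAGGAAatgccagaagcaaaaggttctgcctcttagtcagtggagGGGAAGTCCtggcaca
Over the 250 bases before the start, Ms4a4b and Ms4a4c were identical at 192 of 271 aligned columns (70.8%). Both had GAGGAA, starting at -64 in Ms4a4b and -61 in Ms4a4c, and both had GGGAAGTCC, starting at -20 and -16, with positions counted from the transcription start.

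Ms4a6b (chr19:11518309-11518558) and Ms4a6c (chr19:11469118-11469367), also on the plus strand, held in common an unbroken run of 48 bases, which is in capitals and starts at -118 in Ms4a6b and at -49 in Ms4a6c. Over the aligned 250 bases before the start as a whole they were identical at 155 of 327 columns (47.4%), which is among the lower identities of the pairs.
Ms4a6b: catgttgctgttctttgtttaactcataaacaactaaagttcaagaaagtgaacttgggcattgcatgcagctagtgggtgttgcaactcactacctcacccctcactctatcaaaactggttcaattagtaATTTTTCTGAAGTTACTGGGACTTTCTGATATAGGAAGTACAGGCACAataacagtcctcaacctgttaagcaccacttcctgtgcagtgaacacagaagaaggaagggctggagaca
Ms4a6c: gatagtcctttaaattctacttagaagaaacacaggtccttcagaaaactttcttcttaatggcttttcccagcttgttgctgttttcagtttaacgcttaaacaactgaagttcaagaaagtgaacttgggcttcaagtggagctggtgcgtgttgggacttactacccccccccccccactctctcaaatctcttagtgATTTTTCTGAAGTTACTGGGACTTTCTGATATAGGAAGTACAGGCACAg
Besides the Ms4a4b and Ms4a4c pair, no pair of member promoters had an identity above 53% over those 250 bases. On both strands of the 7 member promoters, GAGGAA was found in 3 and the NF-kB motif GGGANNTCC in 2, against 28.3% and 4.29% of the 32807 promoters of the table. The AP-1 motif TGANTCA was found in 2 (7.82% of all promoters). GAGGAAGT, a longer PU.1 site that contains GAGGAA (3.2% of all), the interferon-stimulated response element, searched as GAAA, any 2 bases and GAAA (3.43%), the GAS element TTCNNNGAA (8.29%) and the C/EBP motif TTGCNNAA (10.8%) were found in 0. These matches describe letters in a short window only.

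In PBS mice the members were rare transcripts. Levels are given as CPM, that is, counts scaled to the library size after TMM normalization, and the 7 members together summed to a median of 4.07 CPM in cortex and 4.25 CPM in hippocampus. Per kilobase of annotated exon, which scales for length, Ms4a6d was the highest in both tissues, at 0.687 ± 0.153 CPM per kb in cortex and 0.483 ± 0.0805 in hippocampus (mean ± SD, n = 5 each). Ms4a4a, Ms4a6b, Ms4a6c and Ms4a7 followed in that order, and Ms4a4c and Ms4a4b were the lowest in both tissues. In cortex the library ranges of neighbours in this order overlapped from Ms4a6d down to Ms4a7, and those of Ms4a4c and Ms4a4b overlapped each other. Ms4a7 and Ms4a4c did not overlap. In PBS hippocampi Ms4a6b stood apart from Ms4a6c, Ms4a7 from Ms4a4c, and Ms4a4c from Ms4a4b. This order depends on exon length, which counts every annotated exon (8780 bases for Ms4a4b and 836 for Ms4a4a). In CPM, Ms4a6b was the highest, at a mean of 1.97 in PBS cortex and 1.71 in PBS hippocampus, against 1.19 and 0.837 for Ms4a6d. The hippocampal ranges of Ms4a4c and Ms4a4b overlapped in CPM. PBS cortex and hippocampus did not differ past the threshold for any of the 7 members (edgeR quasi-likelihood test with Benjamini-Hochberg adjustment, adjusted p from 0.248 to 0.787), although 2.7% of tested genes were called higher and 2.87% lower in cortex. Ms4a4c had 4 counts in the 5 PBS cortices together and 25 in the 5 PBS hippocampi. It became a call, lower in cortex, when the mouse was added as a block (log2 fold change -2.16, adjusted p = 0.0492) and when the fit held the PBS libraries alone (-2.20, adjusted p = 0.0319).

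Both tissues of the mice that received α-IgLON5 held more RNA of the Ms4a genes than those that received control IgG. In hippocampus 5 of the 7 members were called higher (adjusted p under 0.05 and fold change above 2), against 2.21% of all genes tested, and in cortex 6 of 7 were, against 2.14%. When the fit held the 2 groups compared alone, 2 of 7 were called in hippocampus, Ms4a6c and Ms4a6d, and the calls of Ms4a4c (adjusted p = 0.0924), Ms4a6b (adjusted p = 0.0518) and Ms4a7 (adjusted p = 0.0624) were lost, while the genes called higher among all tested fell from 448 to 286. None was called lower in the fit of all groups, against 0.237% and 0.0247% of genes. The median log2 fold change of the members was 1.94 in hippocampus and 2.67 in cortex, where the median over all genes tested was 0.00125 and -0.00661. These medians include mouse 8, without which several members had smaller fold changes in both tissues, as given below. The summed level of the members rose from a median of 6.49 CPM (range 4.97 to 7.33) to 18 CPM (12.8 to 39) in hippocampus and from 5.29 CPM (4.26 to 6.25) to 21.6 CPM (13 to 51.8) in cortex, with no overlap between the groups. Every α-IgLON5 library was above every control IgG library for 5 of 7 members in hippocampus, against 6.68% of genes, and for 6 of 7 in cortex, against 3.68%. Outside the α-IgLON5 groups, Ms4a4b and Ms4a4c reached 10 counts only in the control IgG hippocampus of mouse 15 (19 and 16 counts). They therefore passed the filter on low counts only through α-IgLON5 libraries. Their calls and separations in this and the later comparisons with α-IgLON5 are no independent support.

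**Figure D1:**
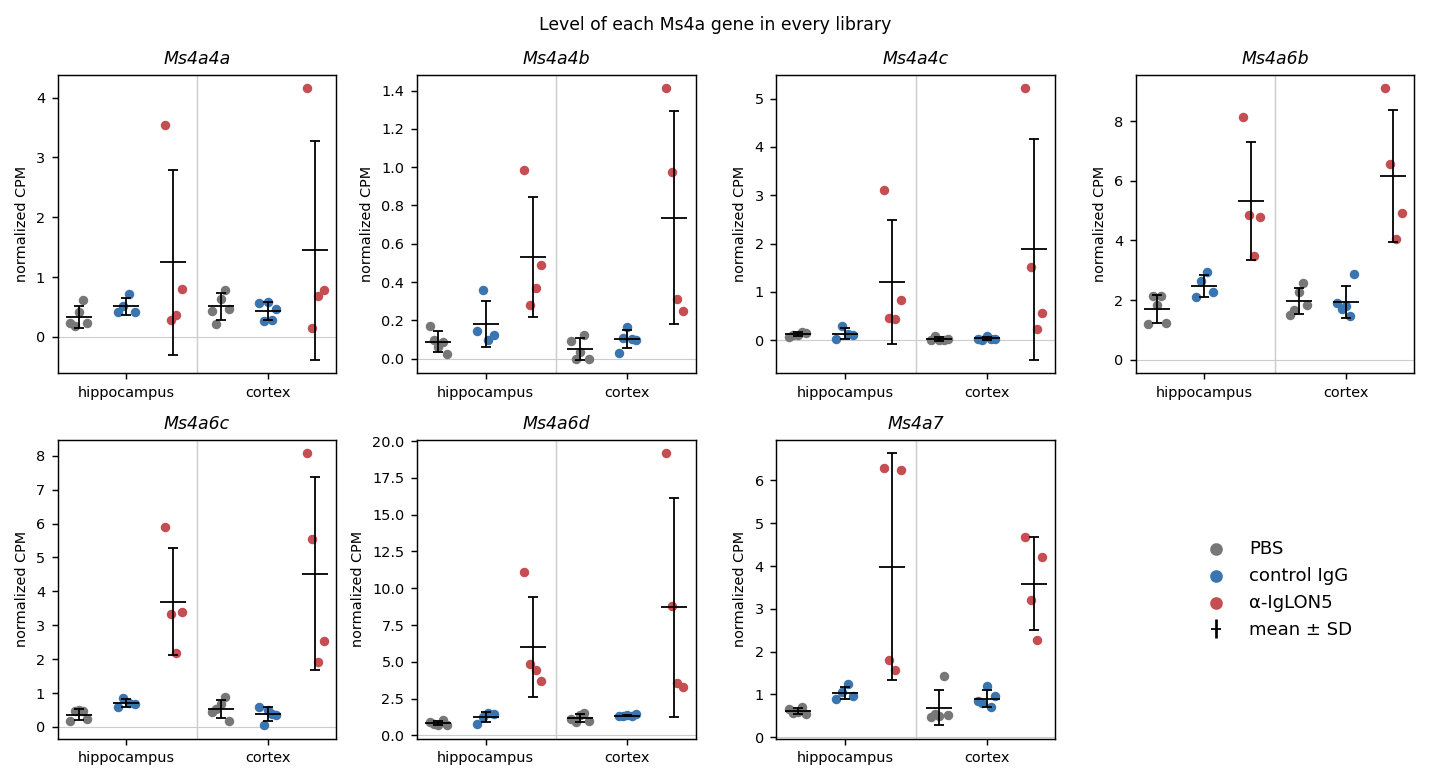
Level of each of the 7 Ms4a genes in every library, in CPM after TMM normalization (linear axis, a scale of its own in each panel), for hippocampus and cortex. Points are libraries, bars are the mean ± SD of 4 or 5 libraries, and in 5 of the 7 panels all 4 α-IgLON5 libraries of each tissue lie above every control library, the exceptions being Ms4a4a and Ms4a4b.

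The 3 Ms4a6 genes rose in both tissues. Ms4a6d, which in macrophages is known as a partner of surface receptors, had 11.1, 4.84, 4.41 and 3.70 CPM in the hippocampi of α-IgLON5 mice 8, 9, 16 and 17. The 4 control IgG hippocampi had 0.797, 1.24, 1.52 and 1.45 CPM, and the 5 PBS hippocampi had 0.921, 0.787, 0.733, 1.04 and 0.706 CPM. Every α-IgLON5 hippocampus was thus above every control, and mouse 8 was far above the other 3. The log2 fold change against control IgG was 2.25 ± 0.412 (SE, adjusted p = 9.46e-04). In cortex the same mice had 19.2, 8.77, 3.57 and 3.28 CPM, against 1.31, 1.33, 1.37, 1.30 and 1.46 CPM in control IgG and 0.917 to 1.55 CPM in PBS. The control IgG cortices were nearly equal and the α-IgLON5 cortices differed 5.84-fold among themselves, and the log2 fold change was 2.67 ± 0.387 (adjusted p = 8.22e-05). Without the α-IgLON5 cortex of mouse 8 it was 1.92 (adjusted p = 5.77e-04).

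Ms4a6c, a gene known from monocytes and macrophages, had the largest fold change of the 3 Ms4a6 genes. In hippocampus the α-IgLON5 mice 8, 9, 16 and 17 had 5.91, 3.32, 2.18 and 3.38 CPM, and the control IgG mice had 0.593, 0.865, 0.714 and 0.688 CPM. In cortex the corresponding values were 8.07, 5.56, 1.93 and 2.55 CPM, against 0.594, 0.0532, 0.494, 0.386 and 0.366 CPM. All α-IgLON5 libraries exceeded all controls, whose maximum was 0.883 CPM in a PBS cortex. The log2 fold change was 2.35 ± 0.430 in hippocampus (adjusted p = 9.46e-04) and 3.47 ± 0.436 in cortex (adjusted p = 1.66e-05).

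Ms4a6b, a further member of the same subgroup, was the most abundant of the 3 in controls in CPM, and its fold change was the smallest of the members called. It was at 3.49 to 8.12 CPM in the α-IgLON5 hippocampi and at 2.11 to 2.93 CPM in control IgG, a log2 fold change of 1.08 ± 0.262 (adjusted p = 0.0121). In cortex it was at 4.05 to 9.10 CPM against 1.47 to 2.86 CPM, a log2 fold change of 1.65 ± 0.251 (adjusted p = 1.40e-04). The ranges did not overlap in either tissue. The hippocampal call was lost without the α-IgLON5 hippocampus of mouse 8 (log2 fold change 0.81, adjusted p = 0.0867) and without the control IgG hippocampus of mouse 10 (1.01, adjusted p = 0.0518). Ms4a6b made up a smaller part of the members' summed CPM in α-IgLON5 libraries, 25.6% ± 4.27 in hippocampus (SD, n = 4) against 39.5% ± 2.13 in control IgG (n = 4), whereas Ms4a6c made up 17.5% ± 2.5 against 11.4% ± 1.17.

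Ms4a7, the macrophage marker, rose to a similar extent in both tissues. The hippocampi of α-IgLON5 mice 8, 9, 16 and 17 had 6.30, 1.80, 1.56 and 6.25 CPM, and the control IgG hippocampi had 0.899, 1.05, 1.24 and 0.958 CPM. Mice 8 and 17 formed a high pair and mice 9 and 16 a low pair, and even the low pair exceeded all controls. In cortex the α-IgLON5 mice had 4.67, 3.21, 2.26 and 4.21 CPM, and the control IgG mice had 0.845, 0.798, 1.2, 0.702 and 0.964 CPM. The log2 fold change was 1.94 ± 0.366 in hippocampus (adjusted p = 1.27e-03) and 1.97 ± 0.351 in cortex (adjusted p = 8.20e-04). Among the PBS cortices mouse 38 had 1.42 CPM, where the other 4 had 0.470 to 0.532 CPM. The summed border macrophage markers of that library were also the highest of the PBS cortices, at 77 CPM against 40.1 to 47.8 CPM. So were its sums of type I interferon response (29.9 CPM), B cell (3 CPM), neutrophil (2.46 CPM) and choroid plexus genes (11 CPM). Its neuronal sum, 7410 CPM, was the lowest of the PBS cortices. The part of any of these in its Ms4a7 level was not tested.

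Ms4a4c, a gene known to be induced by interferon, was nearly undetected in control cortices and had the largest fold change of the members there. The 5 PBS cortices held 4 counts in all and the 5 control IgG cortices held 7, whereas the α-IgLON5 cortices of mice 8, 9, 16 and 17 held 192, 42, 10 and 31 counts (5.22, 1.52, 0.238 and 0.556 CPM). Pooled over libraries, the ratio of α-IgLON5 to control IgG cortices was 36.7 (95% exact interval 17.6 to 92.2, for counting error only), and the ratio to PBS was 69.3 (26.8 to 256). The edgeR log2 fold change against control IgG was 5.25 ± 0.908 (adjusted p = 5.81e-04), and with so few counts in the controls its size is loosely fixed. Without the α-IgLON5 cortex of mouse 8 it was 3.91 (adjusted p = 0.00875), and without the control IgG cortex of mouse 15 it was 5.92 (adjusted p = 0.00191). In hippocampus the α-IgLON5 mice had 3.10, 0.451, 0.429 and 0.831 CPM, and the control IgG mice had 0.0204, 0.301, 0.119 and 0.0982 CPM. These groups did not overlap, with a log2 fold change of 3.05 ± 0.806 (adjusted p = 0.0214). That call was lost without the α-IgLON5 hippocampus of mouse 8 (log2 fold change 2.05, adjusted p = 0.177), and without the control IgG hippocampus of mouse 10 (adjusted p = 0.0801) or mouse 37 (adjusted p = 0.0778), and without that of mouse 15 the value was 3.87 (adjusted p = 0.0138).

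Ms4a4b, which is known best from T cells, had low counts throughout, with 0 in 2 PBS cortices and at most 52 in any library. In cortex it was at 0.251 to 1.41 CPM in α-IgLON5 and at 0.0313 to 0.165 CPM in control IgG, with a log2 fold change of 2.74 ± 0.600 (adjusted p = 0.00679). This call was lost without mouse 8 (log2 fold change 2.16, adjusted p = 0.0859) and when the fit held the 2 groups compared alone (2.74, adjusted p = 0.053). In hippocampus it was at 0.282 to 0.984 CPM against 0.0952 to 0.357 CPM, with 3 of 4 α-IgLON5 libraries above all controls, and it did not pass the test (log2 fold change 1.48 ± 0.585, adjusted p = 0.126). The control IgG hippocampus of mouse 15, at 0.357 CPM, was the highest of the controls, and without it Ms4a4b became a call (log2 fold change 2.08, adjusted p = 0.049).

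Ms4a4a, the mouse counterpart of human MS4A4A, was the member that did not pass the test in any comparison. In hippocampus the α-IgLON5 mice 8, 9, 16 and 17 had 3.54, 0.282, 0.368 and 0.802 CPM, against 0.409, 0.508, 0.714 and 0.417 CPM in control IgG. In cortex they had 4.16, 0.144, 0.691 and 0.789 CPM, against 0.563, 0.266, 0.589, 0.281 and 0.466 CPM. Mouse 8 was thus high in both tissues and mouse 9 was the lowest of the 4 in both, and below every control IgG library of its tissue. The log2 fold change was 1.24 ± 0.692 in hippocampus (adjusted p = 0.308) and 1.69 ± 0.656 in cortex (adjusted p = 0.188), and without mouse 8 it was -0.01 in hippocampus and 0.35 in cortex.

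**Figure D2:**
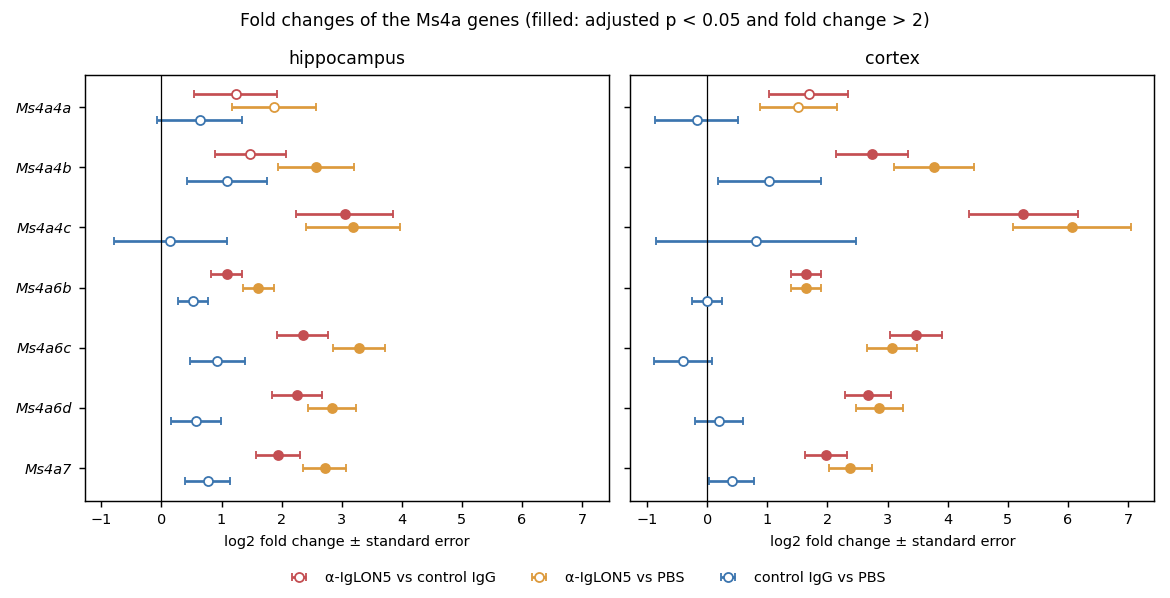
Log2 fold change with its standard error (horizontal axis) of each Ms4a gene for α-IgLON5 against control IgG, α-IgLON5 against PBS, and control IgG against PBS, in hippocampus (4, 4 and 5 libraries of α-IgLON5, control IgG and PBS) and cortex (4, 5 and 5). Filled symbols passed an adjusted p of 0.05 and a fold change of 2, and only comparisons with α-IgLON5 hold filled symbols, with Ms4a4a open throughout.

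Against PBS, which shares its α-IgLON5 libraries with the comparison above, 6 of 7 members were called higher in hippocampus (2.56% of all genes) and 6 of 7 in cortex (2.24%), again without Ms4a4a (adjusted p = 0.15 and 0.395). The same 6 had every α-IgLON5 library above every PBS library (4.49% of genes in hippocampus and 3.14% in cortex). The median log2 fold change was 2.72 in hippocampus and 2.86 in cortex. In hippocampus Ms4a6c had a log2 fold change of 3.28 ± 0.433 (adjusted p = 8.84e-06), and Ms4a4b, which was not called against control IgG, had 2.57 ± 0.630 (adjusted p = 0.0132). Without mouse 8 the hippocampal calls of Ms4a4b (adjusted p = 0.0996) and Ms4a4c (adjusted p = 0.195) were lost. In cortex, leaving out mouse 8 lowered Ms4a4c from 6.06 to 4.72 and Ms4a6d from 2.86 to 2.11, and leaving out a PBS library raised Ms4a4c to 7.38 (mouse 32) and Ms4a4b from 3.77 to 4.40 (mouse 38), all still called. Ms4a4b in cortex held 8 counts in the 5 PBS libraries and 106 in the 4 α-IgLON5 libraries, a pooled ratio of 13.4 (95% exact interval 6.54 to 31.7).

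Control IgG and PBS, the pair of control infusions, did not differ past the threshold for any member in either tissue. In hippocampus 0 of 7 members were called (0.0493% of all genes were called higher), all 7 log2 fold changes were positive with a median of 0.638 (Ms4a4c turned to -0.68 without the control IgG library of mouse 15), and 2 of the 7 had an unadjusted p under 0.05 (Ms4a7, 0.77 ± 0.375, adjusted p = 0.357, and Ms4a6b, 0.53 ± 0.253, adjusted p = 0.347). The hippocampal levels of Ms4a7 and Ms4a6c did not overlap between control IgG and PBS, which was so for 1.87% of genes. In cortex 0 of 7 were called (0% of genes), 4 of 7 values were positive (without the PBS cortex of mouse 38, Ms4a4a turned to 0.043 and Ms4a6b to 0.11, and Ms4a6b also turned without any 1 of 4 other libraries), the median was 0.191 and 0 members had an unadjusted p under 0.05. DESeq2 also called 0 members in both tissues.

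The response of the members was not shown to differ between tissues. The interaction term, the log2 fold change against control IgG in hippocampus minus that in cortex, was negative for all 7 members, from -2.21 ± 1.36 for Ms4a4c (adjusted p = 0.591) to -0.03 ± 0.497 for Ms4a7 (adjusted p = 0.995). The sign depended on single libraries: without the α-IgLON5 cortex of mouse 8 it was positive for Ms4a4a (0.89), Ms4a6d (0.33) and Ms4a7 (0.12), and for Ms4a7 it was also positive without any 1 of 7 other libraries, at up to 0.25. None passed an adjusted p of 0.05, and 0 had an unadjusted p under 0.05. Over all genes edgeR called 0% in this term, where 2158 had an unadjusted p under 0.05, and DESeq2 called 18 higher and 18 lower, without a member. With the mouse as a block the 7 values ran from -1.74 to -0.14 and 0 were called, where 2 of all genes tested were.

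The 4 α-IgLON5 mice differed from each other. Mouse 8 had the highest level of all 7 members in both tissues, at 3.27-fold (Ms4a6b) to 23-fold (Ms4a4c) of the control IgG mean in hippocampus and at 4.66-fold (Ms4a6b) to 135-fold (Ms4a4c) in cortex. Mouse 9 was second to it in cortex for Ms4a4b, Ms4a4c, Ms4a6b, Ms4a6c and Ms4a6d, whereas mouse 17 was second for Ms4a4a and Ms4a7. In hippocampus mouse 17 was second for Ms4a4a, Ms4a4b, Ms4a4c, Ms4a6c and Ms4a7, and mouse 9 for Ms4a6b and Ms4a6d. Both tissues of a mouse come from the same animal, so these are 4 mice and not 8. Mouse 8 also had the highest sum of several other lists among the α-IgLON5 mice. Its type I interferon response genes summed to 172 CPM in hippocampus, against 39.2 to 75.3 CPM in the other 3, and to 202 CPM in cortex, against 25 to 113 CPM. Its neutrophil markers summed to 7.73 CPM in hippocampus (0.563 to 2.41 in the others) and 14.7 CPM in cortex (0.794 to 1.94), and its homeostatic microglia genes to 450 and 418 CPM, the lowest of the 4 in each tissue. The part of these in the members' levels was not tested. Without mouse 8, 3 of 7 members were called in hippocampus and 5 of 7 in cortex against control IgG, and the genes called higher among all tested fell from 448 to 327 in hippocampus and from 433 to 219 in cortex.

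**Figure D3:**
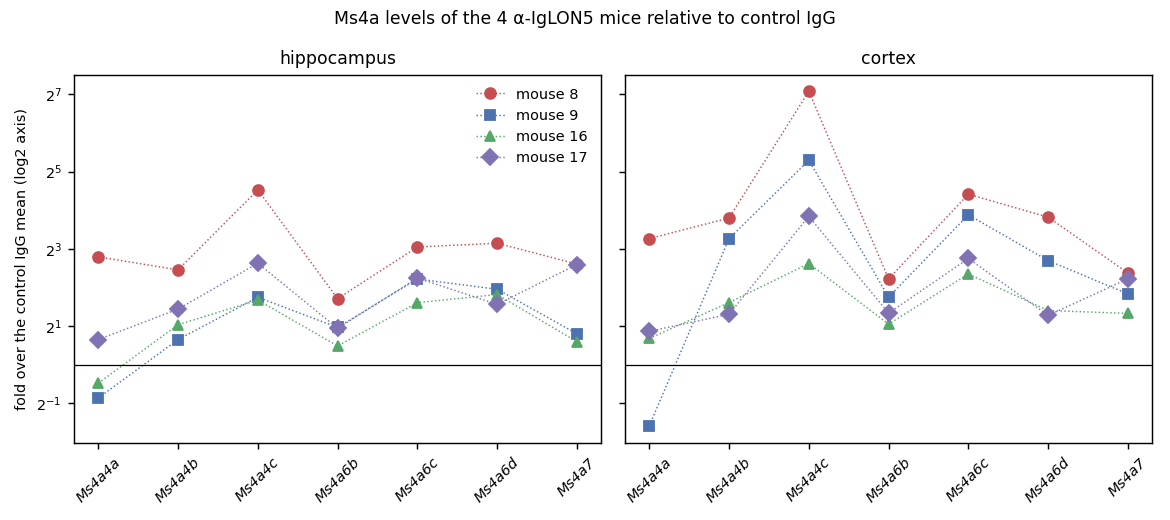
Level of each Ms4a gene in α-IgLON5 mice 8, 9, 16 and 17 as a fold of the control IgG mean of the same tissue (vertical axis, log2 scale, each point 1 library). Mouse 8 is the highest for every gene in both tissues, and mouse 9 lies below the control IgG mean for Ms4a4a, at 0.55-fold in hippocampus and 0.333-fold in cortex.

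All α-IgLON5 mice have numbers from 8 to 17, and most control mice have higher numbers. When only mice 8 to 17 were kept, 2 control IgG hippocampi and 3 control IgG cortices remained, and 0 of 7 members were called in either tissue. The log2 fold changes then ran from 1.04 to 2.80 in hippocampus (adjusted p from 0.166 to 0.649) and from 1.56 to 5.07 in cortex (adjusted p from 0.0609 to 0.564). Of all genes, 49 were called higher in hippocampus and 9 in cortex under that restriction, and what the numbers stand for is not given in the labels.

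Markers of other cells moved as well. Of 10 homeostatic microglia genes, which mark resting microglia, 0 were called in either tissue, though 5 of 10 passed the adjusted p without the fold threshold in hippocampus (4.23% of genes did so in the higher direction) and 0 of 10 in cortex (3.01%). Their median log2 fold change was 0.478 and 0.0947, and their sum was 450 to 765 CPM in α-IgLON5 hippocampi (362 to 414 in control IgG) and 418 to 477 CPM in cortices (363 to 445). P2ry12, a purinergic receptor of resting microglia, was at -0.37 ± 0.184 in hippocampus (adjusted p = 0.241), and Cx3cr1, the fractalkine receptor, was at 0.89 ± 0.136 (adjusted p = 1.13e-04). Pan-myeloid genes were called higher in 6 of 8 cases in hippocampus and 5 of 8 in cortex, with Adgre1, which encodes a surface antigen of macrophages, at 2.61 ± 0.286 and 2.22 ± 0.264 (adjusted p = 1.5e-06 and 1.06e-05). That list summed to 151 to 303 CPM in α-IgLON5 hippocampi (71.7 to 90.9 in control IgG) and to 131 to 244 CPM in cortices (73.1 to 91.8).

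The members were also set against the homeostatic microglia list. The measure is a gene's log2 CPM minus the mean log2 CPM of the 10 homeostatic genes in the same library, given as a description. In cortex it was higher by 0.87 (Ms4a4a) to 4.14 (Ms4a4c) than in control IgG, and the groups did not overlap for 6 of 7 members, all except Ms4a4a, against 2.42% of all genes tested. In hippocampus it was higher by 0.21 (Ms4a4a) to 2.39 (Ms4a4c), and the groups did not overlap for 2 of 7 members, Ms4a6c (1.90) and Ms4a6d (1.79), against 1.84% of genes. The hippocampal differences of the other 5 lay within overlapping ranges. For Ms4a4a in hippocampus the measure was -2.98 in mouse 8 and -7.27, -6.73 and -5.37 in mice 9, 16 and 17, against a control IgG mean of -5.80. For Ms4a4c it was -3.17 in mouse 8 and -6.64, -6.52 and -5.32 in mice 9, 16 and 17, against a mean of -7.81. The size of these 2 differences thus leaned on mouse 8.

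**Figure D4:**
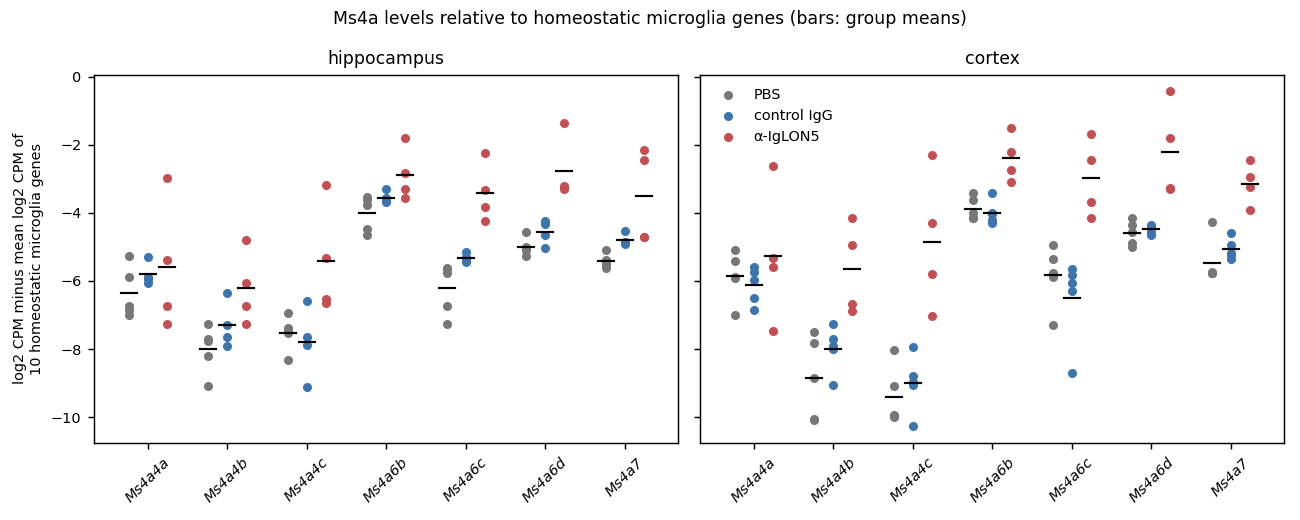
Level of each Ms4a gene relative to 10 homeostatic microglia genes, as log2 CPM minus the mean log2 CPM of those genes, in every library. Points are libraries and bars are group means. In cortex the α-IgLON5 points lie above all control IgG points for all genes except Ms4a4a, and in hippocampus they do so for Ms4a6c and Ms4a6d.

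Genes of the monocyte and interferon response lists were called higher in both tissues. The counts below were not shown to differ between tissues, since the interaction term called 0 genes of the monocyte, border macrophage and interferon lists. Of 9 monocyte genes tested, 2 were called higher in hippocampus and 6 in cortex. Ly6c2, a surface marker of inflammatory monocytes, was at 3.81 ± 0.692 and 4.63 ± 0.753 (adjusted p = 8.77e-04 and 2.90e-04), and Ccr2, the receptor that guides them to tissue, was at 1.78 ± 0.596 and 2.56 ± 0.579 (adjusted p = 0.0693 and 0.00872). Vcan, Fn1 and Nr4a1, which were picked out after their values were seen, were called in neither tissue, at -0.01, -0.29 and -0.43 in hippocampus and 0.06, 0.18 and -0.67 in cortex. The whole monocyte list summed to 190 to 328 CPM in α-IgLON5 hippocampi and 286 to 342 in control IgG, and 323 to 513 and 412 to 683 CPM in cortices. Of 10 border macrophage genes, 0 were called higher and Lyve1 was called lower in hippocampus (-1.81 ± 0.316, adjusted p = 5.81e-04), and 1 was called higher and Lyve1 lower in cortex (-1.35 ± 0.283, adjusted p = 0.00425). Mrc1, the mannose receptor of these cells, was at -0.06 ± 0.508 and 0.59 ± 0.478 (adjusted p = 0.966 and 0.61). The border macrophage list summed to 49.1 to 81.1 CPM in α-IgLON5 hippocampi (51.2 to 66.4 in control IgG) and to 29.7 to 89.7 CPM in cortices (41.9 to 57.7), and mouse 9 was the lowest α-IgLON5 mouse in both. Type I interferon response genes were called higher in 3 of 10 cases in hippocampus and 9 of 10 in cortex, with Irf7, a transcription factor of that response, at 1.66 ± 0.498 and 2.51 ± 0.484 (adjusted p = 0.0423 and 0.00188). Ifit1, Ifit3 and Isg15, which precede it in the list, were not called in hippocampus, at 0.54, 0.84 and 0.98 (adjusted p = 0.635, 0.352 and 0.285). In cortex Ifit1 was not called either (1.68, adjusted p = 0.112), while Ifit3 and Isg15 were (1.78 and 2.17). The interferon list summed to 39.2 to 172 CPM against 19 to 73 in hippocampus and 25 to 202 CPM against 17.1 to 35.7 in cortex.

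Markers of lymphocytes were examined as well. Of 7 B cell genes tested, 4 were called higher in hippocampus and 2 in cortex, and the list summed to 4.34 to 9.89 CPM in the α-IgLON5 hippocampi (2.21 to 3.05 in control IgG) and to 3.69 to 8.34 CPM in the cortices (1.58 to 2.29), with no overlap between the groups. T cell genes were called in 1 of 5 cases in each tissue, and NK cell genes in 0 of 2 and 1 of 2. Neutrophil, neuronal and choroid plexus genes were called in 0 of 4, 0 of 8 and 0 of 5 cases in either tissue. Whether these cells carry part of the Ms4a RNA was not tested, and no defining marker of the myeloid, B cell, T cell or NK cell lists was at 0 in all libraries of a group, while Ly6g of neutrophils was at 0 in all 4 α-IgLON5 cortices.

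**Figure D5:**
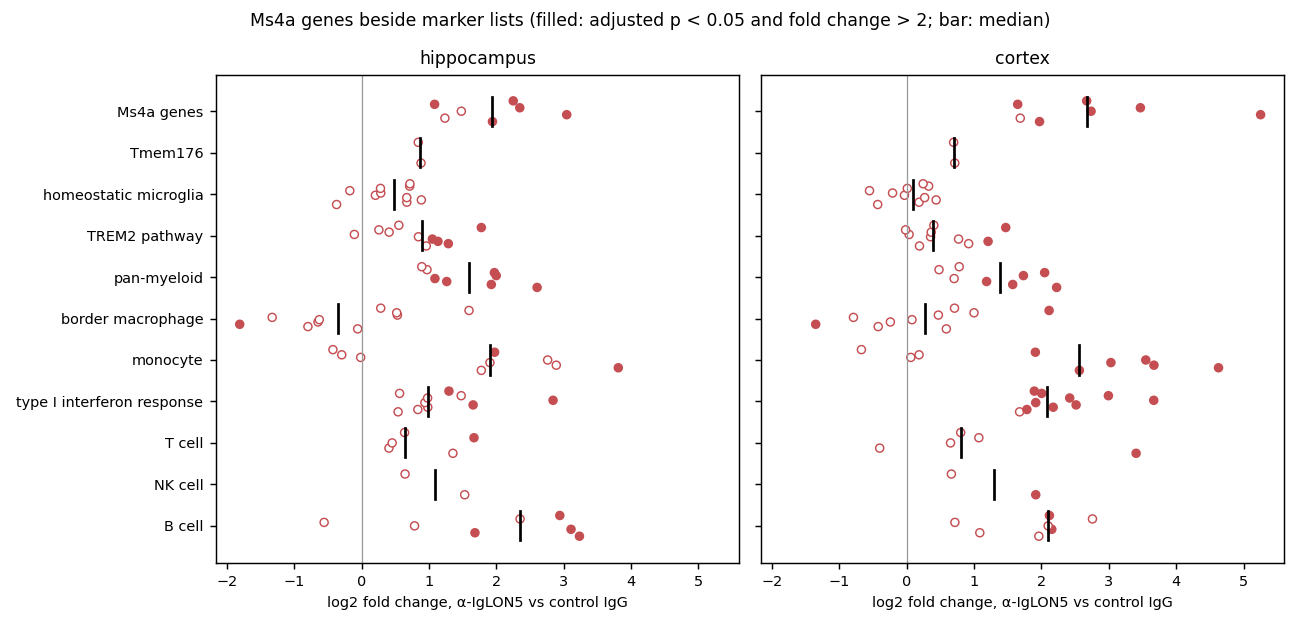
Log2 fold change of α-IgLON5 against control IgG (horizontal axis) for the 7 Ms4a genes and for each tested gene of 10 other lists, in hippocampus and cortex. Each circle is a gene, filled when called, and the black bar is the list's median, which for the Ms4a genes is 1.94 in hippocampus and 2.67 in cortex and for homeostatic microglia genes is 0.478 and 0.0947.

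Genes tied to TREM2, the receptor whose shed form is linked to the human MS4A locus, were examined as a further list of 10. In hippocampus 4 were called higher (2.21% of all genes) and 8 passed the adjusted p in that direction (4.23%), and in cortex 2 (2.14%) and 5 (3.01%). A difference between tissues was not shown, since the interaction term called 0 of the 10. Trem2 itself was at 0.96 ± 0.131 in hippocampus (adjusted p = 2.36e-05, under the fold threshold) and at 0.19 ± 0.124 in cortex (adjusted p = 0.507). Tyrobp, its signalling adaptor, was at 1.29 ± 0.166 and 0.92 ± 0.156 (adjusted p = 1.14e-05 and 4.71e-04), and the kinase gene Syk at 1.13 ± 0.207 and 1.21 ± 0.196 (adjusted p = 9.02e-04 and 2.90e-04).

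Beyond the members, Ms4a1 and Ms4a14 were the genes of the family that passed the filter. Ms4a1 reached 10 counts in 4 libraries, all of them α-IgLON5. It entered the test only through the group where it is high, so its calls are no independent support. Ms4a1, which encodes CD20 of B cells, was called higher in hippocampus (3.46 ± 0.949, adjusted p = 0.0266) and cortex (4.58 ± 1.22, adjusted p = 0.0318) against control IgG. Its counts in mice 8, 16 and 17 were 35, 9 and 51 in hippocampus and 59, 6 and 26 in cortex, and mouse 9 had 0 in both tissues, so the groups overlapped. Against PBS, Ms4a1 was called in hippocampus (3.43 ± 0.900, adjusted p = 0.023) and was not called in cortex (3.42 ± 1.02, adjusted p = 0.0756). Ms4a14 was not called against control IgG (adjusted p = 0.129 and 0.132) and, against PBS, was called in cortex (2.46 ± 0.583, adjusted p = 0.012) but not in hippocampus (adjusted p = 0.309).

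The remaining 10 Ms4a genes did not pass the filter. Ms4a5, Ms4a12, Ms4a13 and Ms4a18 had 0 counts in all 27 libraries, Ms4a2, Ms4a3, Ms4a4d, Ms4a8a and Ms4a10 had at most 9 counts in any library, and Ms4a15 had 71 of its 76 counts in the PBS hippocampus of mouse 32. Ms4a2, the mast cell and basophil receptor subunit, did not exceed 3 counts in any library. Tmem176a and Tmem176b, related genes on chromosome 6 that are expressed in dendritic cells and macrophages, were higher by 0.88 ± 0.133 and 0.84 ± 0.113 in hippocampus against control IgG (adjusted p = 1.01e-04 and 1.86e-05) and by 0.71 ± 0.126 and 0.70 ± 0.106 in cortex (adjusted p = 7.71e-04 and 1.50e-04). Both stayed under the fold threshold there, with α-IgLON5 libraries above all control IgG libraries. Against PBS, Tmem176a passed it in hippocampus (1.08 ± 0.126, adjusted p = 1.62e-06), and the other 3 values, from 0.84 to 0.88, stayed under it.

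Some other genes had profiles much like those of the members. A profile was a gene's log2 CPM in each of the 27 libraries minus its mean in the PBS libraries of that tissue, and likeness was the root mean square difference over the 27 libraries. Nearest to the mean member profile were Myo1g (0.426), H2-Q4 (0.437), C5ar1 (0.439), Lyz2 (0.447), Nlrc5 (0.451), Trim30a (0.452), Slfn2 (0.469), Cxcl16 (0.476), Gbp2 (0.476) and Fcgr2b (0.478). Myo1g encodes a myosin of blood cells, C5ar1 the receptor of the complement fragment C5a, and Lyz2 the lysozyme of myeloid cells. The nearest genes differed between members. Ms4a6d was nearest to C3ar1 (0.341), Fpr1 (0.38) and Cxcl16 (0.392), and Ms4a6b to H2-K1 (0.28), Ctsc (0.317) and H2-D1 (0.325). Ms4a7 was nearest to Lyz2 (0.484), Myo1g (0.49) and H2-Eb1 (0.518), and Ms4a6c to Cybb (0.644), Batf (0.667) and H2-Q6 (0.698). Ms4a4b was nearest to Zbp1 (0.63), Nlrc5 (0.638) and H2-Q7 (0.69), and Ms4a4c to Gpr84 (0.845), Cybb (0.887) and Gm15987 (0.915). Ms4a4a was nearest to Ifitm1 (0.564), Angpt2 (0.589) and Scara5 (0.59). Among the members themselves Ms4a6d and Ms4a7 were each other's nearest (0.575).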

How the data were processed

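RNA was sequenced from stranded mRNA libraries in paired-end mode. The authors deposited raw counts in a single table, as whole reads per gene without normalization, for 55487 genes. The submitters' processing notes name STAR 1.4.0 and the study's methods name GRCm38, and the counting program, annotation and strand setting are not given in the sources used here. The 20271 genes that reached 10 counts in 4 or more libraries were tested with edgeR 4.0.16 in R 4.3.3 (TMM, glmQLFit and glmQLFTest, 27 libraries, 6 groups of tissue and treatment, no covariate, Benjamini-Hochberg adjustment). Calls needed an adjusted p below 0.05 with more than a 2-fold change, without the fold threshold for the interaction. Log2 CPM used a prior count of 1. DESeq2 1.42.0 was an alternative, and independent hypothesis weighting and apeglm were not used. Gene names and coordinates came from GENCODE M21 (55227 identifiers matched), and promoters from RefSeq (GRCm38.p6). Library totals of 19385642 to 58550621 counts left Ms4a4b and Ms4a4c with few reads, and intervals cover counting error only. The edgeR test was checked on simulated counts.

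Members and lists were chosen with earlier results of these data known. The genes named are all members, the other Ms4a genes with Tmem176a and Tmem176b, and the genes nearest to the member profiles. From several lists, some of the first 4 genes were named, without keeping to list order. Vcan, Fn1 and Nr4a1 come from further down the monocyte list. Each library is 1 tissue of 1 mouse. No pair of libraries in a group repeated another (48 pairs, lowest chi-square per degree of freedom 4.44). The pairing of tissues rests on the numbers in the titles: over 13 mice with both tissues, the correlation of deviations from the group means ran from -0.0498 to 0.443 (median 0.194), above 0.1 in 8. All 27 libraries were used and 0 columns were left unassigned. The alternatives were DESeq2, RLE size factors, other count filters, only the groups compared, no fold threshold, only mice 8 to 17, the mouse as a block, and each library left out in turn.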

Additional observations from a re-analysis of the deposited data

Results flagged for a closer look

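Of 42 groups of libraries examined for a library far from the rest (7 genes in 6 groups), 5 held one, where chance gives about 1 in 20. Mouse 8 stood far above the other α-IgLON5 mice for Ms4a4a in cortex (4.16 CPM) and hippocampus (3.54 CPM), and for Ms4a4c (3.1 CPM) and Ms4a6d (11.1 CPM) in hippocampus. The PBS cortex of mouse 38 stood above the other PBS cortices for Ms4a7, at 1.42 CPM.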

How the results depend on the processing

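DESeq2, RLE size factors and the filter of 1 count in 1 library changed no member's call. The number of members called against control IgG was 5 in hippocampus and 6 in cortex. It was 3 in both tissues, and 3 in both comparisons with PBS, when at least 10 counts were required in every library, which left 3 members in the test, and of the 15430 genes then tested 210 were called higher in hippocampus and 196 in cortex against control IgG. Against PBS, 247 of those genes were called higher in hippocampus and 216 in cortex. With only the groups compared it was 2 in hippocampus, where 286 of all genes were called higher in place of 448, and 5 in cortex, where 257 were in place of 433. With only mice 8 to 17 it was 0 in both tissues, with fewer samples, and 49 and 9 genes were called higher. These settings took 4 and 11 member calls in all. For PBS cortex against hippocampus it was 1 with only the groups compared and 1 with the mouse as a replicate block, in place of 0, and the interaction stayed at 0 members with the block. That member was lower in cortex, as were 565 of all genes with only the groups compared and 579 with the block. The block was fitted for the PBS tissue comparison and the interaction alone, since each mouse received 1 treatment and gave at most 1 library per tissue. Leaving out each library in turn gave 3 to 6 in hippocampus against control IgG (3 without control IgG mouse 10 or α-IgLON5 mouse 8), 4 to 6 against PBS (4 without mouse 8) and 5 to 6 in cortex against control IgG. Against control IgG, 335 of all 20271 genes were called higher in hippocampus without mouse 10 and 327 without mouse 8. Without mouse 8, 376 were called higher in hippocampus against PBS and 219 in cortex against control IgG. The cause of other lost calls was not tested.

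The sign changed only in values that were not called. With each library left out, Ms4a4a ran from -0.0072 to 1.57 in hippocampus against control IgG. Control IgG against PBS ran from -0.68 to 0.51 for Ms4a4c in hippocampus, and in cortex from -0.37 to 0.043 for Ms4a4a and from -0.19 to 0.11 for Ms4a6b. The interaction ran from -1.69 to 0.89 for Ms4a4a, from -0.89 to 0.33 for Ms4a6d and from -0.35 to 0.25 for Ms4a7 (0.0007 at its largest adjusted p), which was 0.12 with only mice 8 to 17. PBS cortex against hippocampus ran from -0.25 to 0.29 for Ms4a7. Low counts limit Ms4a4b and Ms4a4c most.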
